A study of Mus musculus with 2 samples.

Results

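The stathmin genes Stmn1, Stmn2, Stmn3 and Stmn4, the growth-associated genes Gap43 and Basp1, the genes Marcks and Marcksl1, and the beta-thymosin genes Tmsb4x and Tmsb10 were described in mouse cortex by long-read RNA sequencing, in which 1 read is meant to cover 1 transcript molecule. The 10 genes were taken by symbol, and all 10 were found among the 18366 annotated mouse genes with a read, with 74 transcript models and 4814 reads in replicate 1 and 81 models and 6092 reads in replicate 2. The tissue was the left cerebral cortex, from B6CASTF1/J males aged 14 days, a first-generation cross of C57BL/6J with CAST/EiJ, with no treatment named. The labels give 1 group of 2 libraries, so there were no conditions to compare, and the values describe the genes and how far the libraries differed. The 2 samples share a donor identifier and their descriptions mention several males, so pooled animals are possible. The p-values set the 2 libraries against counting error only, and the spread between them may be technical.

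Stathmins bind tubulin dimers and promote the disassembly of microtubules, and phosphorylation releases the tubulin. GAP-43 and BASP1 are acidic, lipid-anchored proteins of the growth cone membrane, and with MARCKS and its relative MARCKSL1 they bind calmodulin or phosphoinositides and are regulated by protein kinase C. Beta-thymosins are very small proteins that hold actin monomers in reserve. These genes are known for high expression in growing axons and dendrites, and several fall as circuits mature.

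Replicate 1 held 775048 mouse reads and replicate 2 held 924222, so that 1 read stood for 1.29 and 1.08 CPM, the unit that scales reads to the mouse reads of the library. Together the genes accounted for 0.621% and 0.659% of them. The tissue label was set against marker genes: Slc17a7, the vesicular glutamate transporter of cortical excitatory neurons, had 1060 and 1216 reads, and all 6 excitatory markers were present. Markers of striatum, which adjoins the cortex, summed to 928 CPM in replicate 1 and 223 CPM in replicate 2, and 5 of the 6 tested were higher in replicate 1. Myelin markers summed to 3215 and 2105 CPM, choroid plexus markers to 38.7 and 256 CPM and red blood cell markers to 293 and 545 CPM. Of these, Drd2 and Adora2a of striatum were at 0 in replicate 2 and Clic6 of choroid plexus was at 0 in replicate 1. The libraries thus differed in markers of neighbouring tissue, and the part of these in the results was not tested.

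Marcksl1 led the 10 genes in both libraries, with 1579 CPM in replicate 1 and 1783 CPM in replicate 2 (1681 ± 144, mean ± SD, n = 2), and Tmsb10 followed at 986 and 1252 CPM (1119 ± 188). Stmn3 stood at 756 and 783 CPM, and Stmn2 at 675 and 614 CPM. Marcks and Gap43 had 641 CPM each in replicate 1, and 549 and 537 CPM in replicate 2. Below them came Basp1 at 360 and 385 CPM, Stmn1 at 245 and 295 CPM, Tmsb4x at 191 and 224 CPM, and Stmn4 at 137 and 170 CPM. With annotated models alone, the mean of Stmn4 was 70.9 CPM in place of 153 CPM, and that of Marcks 410.4 CPM in place of 595 CPM. In the order over all models, Stmn2 and Marcks, and Marcks and Gap43, overlapped between libraries, while every other pair of neighbours was apart in both libraries. Marcksl1 ranked 26th among all genes by mean CPM, Tmsb10 ranked 64th, and 9 of the 10 genes were among the 1000 highest.

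**Figure D1:**
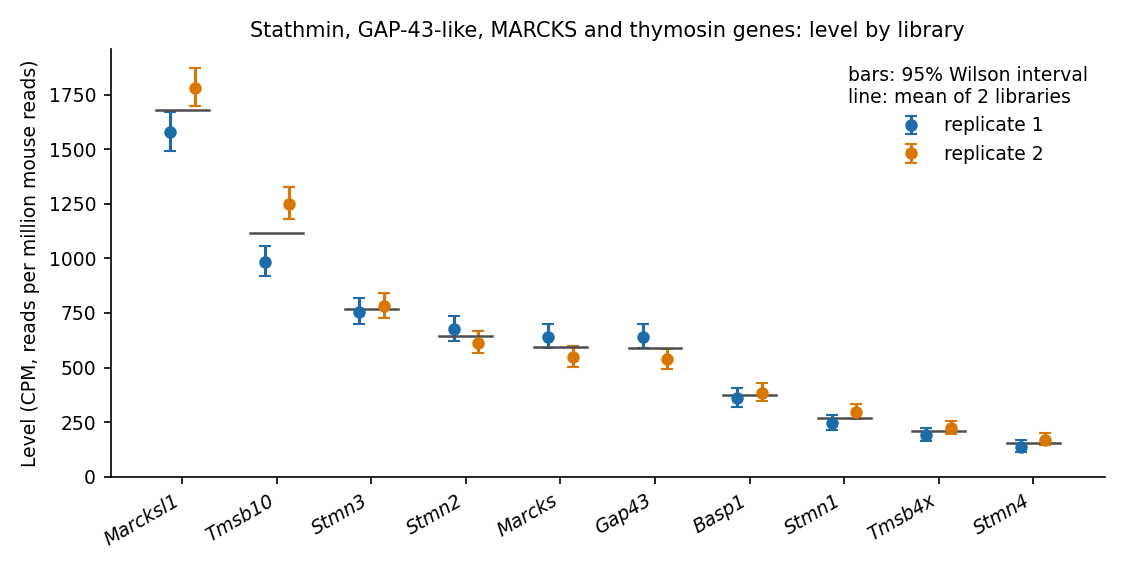
Level of each gene in CPM (reads scaled to all mouse reads, vertical axis) in replicate 1 (left point) and replicate 2 (right point) with 95% Wilson intervals of the counts and the mean of the 2 libraries as a line. Marcksl1 and Tmsb10 stand above the other 8 genes in both libraries.

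CPM values count molecules where each read is 1 molecule, and they were not divided by length. CPM was also divided by the mean length of the gene's models, weighted by their reads in both libraries. Tmsb10 led this order with 1835 CPM per kb, before Marcksl1 with 1024 and Stmn3 with 683 CPM per kb. Marcks, whose models average 3.81 kb with this weighting, moved to the last of the 10 places at 156 CPM per kb. Among the others, Gap43 had 419, Stmn2 327, Tmsb4x 279, Stmn1 258, Basp1 213 and Stmn4 169 CPM per kb. Tmsb4x thus stood above Stmn1 per kb and below it in CPM, and Gap43 stood above Stmn2.

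The stathmin genes share a coding exon of 192 bases, which is printed here because all 4 genes are recognised by it. It lies at chr4:134472804-134472995 (plus strand) for Stmn1, chr3:8554792-8554983 (plus) for Stmn2, chr2:181307216-181307407 (minus) for Stmn3 and chr14:66357846-66358037 (plus) for Stmn4, on GRCm38. In 111 of 192 positions the base is the same in all 4 genes. Capitals mark the bases that differ from Stmn1.
Stmn1: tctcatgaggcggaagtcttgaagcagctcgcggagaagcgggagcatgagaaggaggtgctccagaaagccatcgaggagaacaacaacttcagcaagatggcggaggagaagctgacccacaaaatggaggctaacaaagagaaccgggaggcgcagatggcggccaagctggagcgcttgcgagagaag
Stmn2: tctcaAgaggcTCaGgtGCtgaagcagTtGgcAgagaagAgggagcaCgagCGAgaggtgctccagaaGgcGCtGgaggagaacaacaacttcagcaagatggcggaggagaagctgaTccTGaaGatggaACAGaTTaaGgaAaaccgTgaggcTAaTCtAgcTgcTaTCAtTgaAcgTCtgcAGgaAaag
Stmn3: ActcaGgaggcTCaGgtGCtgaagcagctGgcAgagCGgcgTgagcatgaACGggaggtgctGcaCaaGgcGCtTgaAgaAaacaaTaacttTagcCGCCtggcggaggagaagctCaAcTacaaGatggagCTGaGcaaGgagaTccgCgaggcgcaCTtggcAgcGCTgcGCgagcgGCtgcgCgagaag
Stmn4: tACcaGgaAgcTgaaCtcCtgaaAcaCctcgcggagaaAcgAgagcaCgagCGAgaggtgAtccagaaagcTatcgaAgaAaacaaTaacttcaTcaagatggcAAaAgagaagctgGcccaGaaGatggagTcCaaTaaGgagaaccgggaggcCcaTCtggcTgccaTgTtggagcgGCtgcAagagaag
Stmn4 differs from Stmn1 at 40 of the 192 bases, Stmn2 at 48 and Stmn3 at 51. The closest pair is Stmn1 with Stmn4 at 79.2% of bases the same, and the most distant is Stmn3 with Stmn4 at 69.8%. The coding sequence of Stmn1 has 450 bases, and those of Stmn2, Stmn3 and Stmn4 have 540, 543 and 570. Those 3 are known for a membrane anchor at the start of the protein that stathmin 1 lacks, and their coding sequences are longer than that of Stmn1 by 30, 31 and 40 codons. The letters are those of the C57BL/6J reference, and the deposited counts do not separate the CAST/EiJ allele.

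Stmn3, which encodes SCLIP, was the highest stathmin in both libraries and the most uniform, with 573 of 586 reads in replicate 1 and 695 of 724 in replicate 2 on the 5-exon chain Stmn3-201 (97.8% and 96.0%). Its leading share was higher than that of 97.5% of the 3144 genes that reached 50 reads per library and had a spliced chain. Stmn3 lies on chromosome 2 (181306459 to 181314500, minus strand).

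Stmn2, which encodes SCG10, a marker of growing axons, lies on chromosome 3 (8509360 to 8561606, plus strand). Its reads numbered 523 in replicate 1 and 567 in replicate 2, and 456 and 462 followed the 5-exon chain Stmn2-201 (87.2% and 81.5%). Single-exon models took 37 and 56 reads, of which 37 and 55 were on models within the last exon. A model with 5 of these reads in replicate 1 spans 1 base, so the ends of single-exon models do not give the extent of the reads. A 3-exon fragment of the same chain had 3 reads in replicate 1 and 17 in replicate 2, and a 2-exon fragment 4 and 11 reads. These fragments had more reads in replicate 2, but the chi-square test of the chains of Stmn2 was not passed, with an unadjusted p of 0.00664 and an adjusted p of 0.352. A 5-exon chain that uses an unannotated donor, with its first intron at 8510182 to 8541840 (31659 bases), had 5 and 7 reads. A chain with an additional intron in the 3′ untranslated region, absent as a combination from the annotation, had 3 and 4 reads. In human neurons with reduced nuclear TDP-43, the first intron of STMN2 is known to take up a cryptic exon. In these mice, unannotated exons of 59 and 71 bases in the first intron of Stmn2 each had 0 reads in replicate 1 and 1 read in replicate 2, against 465 and 472 reads that spliced past them, below the floor of 3 counts. Whether either exon corresponds to the human one was not tested, so these counts say nothing on that event.

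Stmn1, the founding stathmin, lies on chromosome 4 (134468320 to 134473843, plus strand) and had 190 and 273 reads. The 5-exon chain Stmn1-201 held 170 and 239 of them (89.5% and 87.6%). The 4-exon chain Stmn1-203, which starts inside the first intron of Stmn1-201, held 10 and 14 reads (5.26% and 5.13%). It has the same coding length, and its introns are also those of Stmn1-201 reads that lack the first exon, so the 2 kinds of read cannot be told apart in the deposited models. A single-exon model of 849 bases runs from the last base of the fourth exon through the fourth intron to the end of the gene. This model had 0 reads in replicate 1, which allows up to 3, and 10 in replicate 2. The chi-square test of Stmn1 chains had an unadjusted p of 0.0268 and an adjusted p of 0.512.

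Stmn4, which encodes RB3, was the lowest stathmin and the one with the most varied structure. It lies on chromosome 14 (66344296 to 66361680, plus strand), with 106 reads in replicate 1 and 157 in replicate 2. Single-exon models were its largest class, with 51 reads (48.1%, 95% Wilson interval 38.8 to 57.5%) and 81 reads (51.6%, 43.8 to 59.3%), and every one of these reads lay in models within the last exon. This share was above that of 96.3% of the 3144 genes. The 6-exon chain Stmn4-201 held 41 and 57 reads. Stmn4-203, which adds an 81-base exon, held 8 and 8 reads, and Stmn4-202, which adds a 53-base exon, held 2 and 4. Over all spliced reads that cover the position, 9 reads contained the 81-base exon and 44 skipped it in replicate 1, against 9 and 65 in replicate 2, which gives 17.0% inclusion (9.20 to 29.2%) and 12.2% inclusion (6.53 to 21.5%). The 53-base exon was contained in 4 reads and skipped by 50 in replicate 1, and contained in 5 and skipped by 68 in replicate 2 (7.41% and 6.85%). The intervals of the libraries overlapped for both exons. Of all annotated internal exons of the 10 genes that 20 or more reads of each library cover, these were the ones with at least 2% of reads on either side.

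The 81-base exon lies at chr14:66356269-66356349 (plus strand, GRCm38), within the coding sequence, and its length is a multiple of 3. It is printed as the sequence whose presence separates Stmn4-203 from Stmn4-201.
Stmn4-203 cassette exon: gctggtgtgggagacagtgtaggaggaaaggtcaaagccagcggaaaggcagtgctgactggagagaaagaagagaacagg
The 53-base exon at chr14:66358679-66358731 replaces the end of the coding sequence, as the last codons of Stmn4-201 (chr14:66361075-66361134) and Stmn4-202 (chr14:66358679-66358699) show. Capitals mark the stop codon.
Stmn4-201: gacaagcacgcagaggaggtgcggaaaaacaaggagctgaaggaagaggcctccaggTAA
Stmn4-202: gagccgcctgctgcgcggTGA
Stmn4-201 has 60 coding bases after the 192-base exon, and Stmn4-202 has 21.

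**Figure D2:**
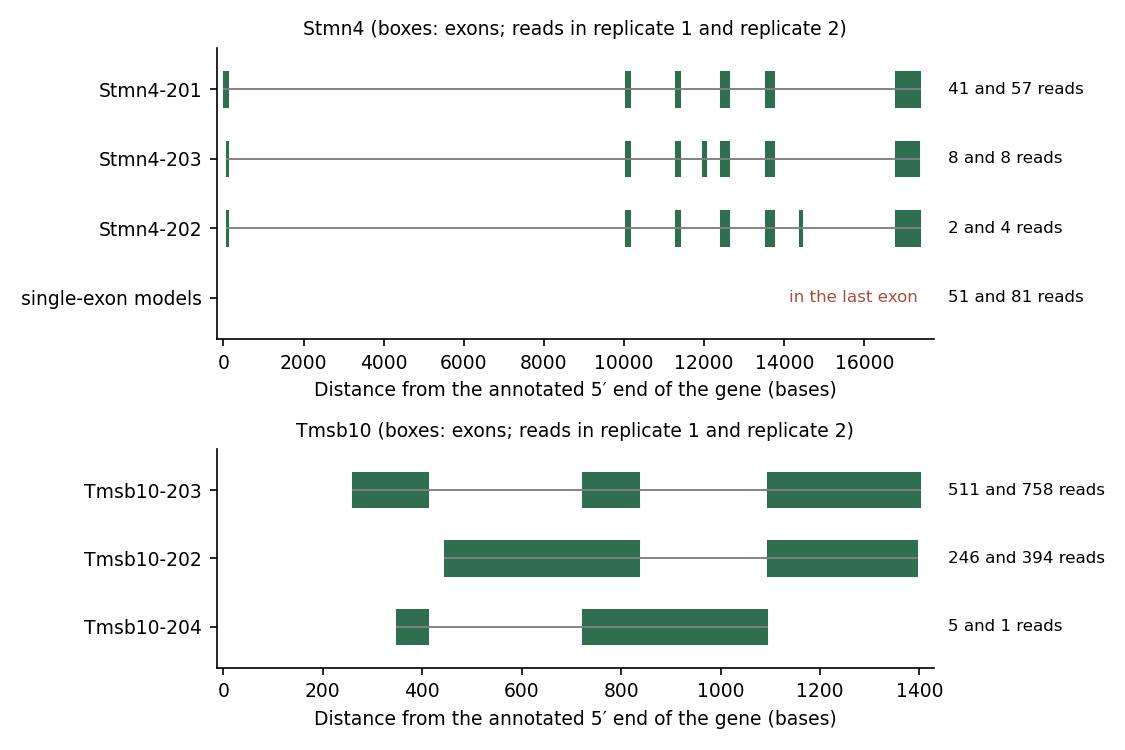
Exon maps of the annotated chains of Stmn4 and Tmsb10 that have reads in both libraries, with distance from the annotated 5′ end of the gene in bases (horizontal axis), exons as boxes and introns as lines. The reads in replicate 1 and then replicate 2 stand at the right, with 51 and 81 for the single-exon models of Stmn4 and 246 and 394 for Tmsb10-202, which starts inside the first intron of Tmsb10-203.

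Gap43 lies on chromosome 16 (42248442 to 42340651, minus strand) and spans 92210 bases with 3 exons. It had 497 reads in replicate 1 and 496 in replicate 2, and 468 and 474 of them followed Gap43-201 (94.2% and 95.6%). Single-exon models had 4 and 3 reads (0.805% and 0.605%). A first exon that lies outside the annotated gene, joined to the second exon by an intron of 65649 bases (42292367 to 42358015), had 4 and 7 reads. A first exon extended in the downstream direction, with its intron at 42292367 to 42340245, had 5 and 2 reads. Both forms were seen in both libraries, and neither is in the annotation.

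Basp1, whose protein resembles GAP-43 in its anchoring and acidity, lies on chromosome 15 (25363277 to 25413764, minus strand). It had 279 and 356 reads, with 248 and 302 on the 2-exon chain Basp1-201 (88.9% and 84.8%). Single-exon models held 31 and 52 reads (11.1% and 14.6%), of which 30 and 51 were on models within the last exon of 1642 bases. Basp1-202, a 3-exon annotated chain, was listed in neither library, and a count of 0 allows up to 3 reads in each.

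Marcks and Marcksl1 each have 2 exons with the intron at the same place in the reading frame. The 30 coding bases around that junction are the longest run of codons for the same amino acids, and are printed to show that the genes can be told apart there. The stretch holds 15 bases in each exon, lies within chr10:37136921-37138448 (minus) for Marcks and chr4:129513902-129514731 (plus) for Marcksl1, on GRCm38, and capitals mark the 5 bases that differ.
Marcks: aaAgcAaaTggGcaggagaatggccacgtA
Marcksl1: aaGgcCaaCggAcaggagaatggccacgtG
Over the aligned coding sequences, 68.9% of bases were the same.

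Marcks, on chromosome 10 (37133375 to 37138920, minus strand), encodes the main myristoylated substrate of protein kinase C in brain. It had 497 reads in replicate 1 and 507 in replicate 2. The 2-exon chain Marcks-201 held 341 and 352 reads (68.6%, 64.4 to 72.5%, and 69.4%, 65.3 to 73.3%). Single-exon models held 153 and 154 reads (30.8% and 30.4%), of which 152 in each library were on models within the last exon of 3561 bases. This single-exon share was above that of 93.8% of the 3144 genes.

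Marcksl1, on chromosome 4 (129513581 to 129515985, plus strand), had 1224 and 1648 reads, the most of the 10 genes, and 1157 and 1563 followed Marcksl1-201 (94.5% and 94.8%). Its single-exon models had 58 and 74 reads (4.74% and 4.49%), all on a model of 2405 bases that covers both exons and the intron between them. In Marcks, by contrast, nearly all single-exon reads were on models within the last exon, though model ends do not give the extent of the reads. Unannotated chains of Marcksl1 gave 9 and 11 reads over 7 chains, 3 of them in both libraries.

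Tmsb4x and Tmsb10 code for thymosins of the same length, and the whole coding sequences of 135 bases are printed because the genes are told apart by them. Tmsb4x-201 lies within chrX:167207504-167208036 (minus) and Tmsb10-203 within chr6:72957621-72958012 (minus), on GRCm38, and capitals mark the 40 bases that differ.
Tmsb4x: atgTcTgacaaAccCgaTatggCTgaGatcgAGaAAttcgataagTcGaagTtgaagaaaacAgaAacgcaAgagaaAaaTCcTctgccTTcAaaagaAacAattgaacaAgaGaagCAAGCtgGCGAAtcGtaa
Tmsb10: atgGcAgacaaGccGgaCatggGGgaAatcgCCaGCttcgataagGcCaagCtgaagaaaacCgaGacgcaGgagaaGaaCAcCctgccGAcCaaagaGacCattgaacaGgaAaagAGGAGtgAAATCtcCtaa
The remaining 95 bases (70.4%) are the same.

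Tmsb10 had 764 reads in replicate 1 and 1157 in replicate 2, against 148 and 207 for Tmsb4x, which lies on chromosome X (167207093 to 167209315, minus strand). Tmsb4x was nearly all 1 form, with 138 and 195 reads on Tmsb4x-201 (93.2% and 94.2%). Tmsb10, on chromosome 6 (72957347 to 72958748, minus strand), was divided between annotated chains with the same coding sequence. The 3-exon chain Tmsb10-203 held 511 and 758 reads (66.9%, 63.5 to 70.1%, and 65.5%, 62.7 to 68.2%). The 2-exon chain Tmsb10-202 held 246 and 394 reads (32.2%, 29.0 to 35.6%, and 34.1%, 31.4 to 36.8%). The shares overlapped between the libraries. The single intron of Tmsb10-202 is the second intron of Tmsb10-203, so reads of Tmsb10-203 that lack the first exon would be counted in the same model, and read ends are not part of the deposited tables, so their share was not tested. Spliced incomplete matches, which hold part of an annotated chain, had 14 and 30 reads in Stmn2, 5 and 13 in Stmn3, 12 and 6 in Gap43, 5 and 7 in Stmn1, 2 and 3 in Stmn4 and 1 and 1 in Tmsb4x, beside the 10 and 14 reads of Stmn1-203. Tmsb10-204 had 5 and 1 reads.

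Between the libraries, Tmsb10 was the only gene of the 10 past Fisher's exact test, 1.27-fold lower in replicate 1, with a log2 ratio of -0.34 (95% interval -0.48 to -0.21, adjusted p = 5.62e-05). Its 95% Wilson intervals, 918 to 1058 CPM in replicate 1 and 1182 to 1326 CPM in replicate 2, did not overlap. Neither did those of Marcksl1 (1493 to 1670 and 1699 to 1871 CPM) and Gap43 (587 to 700 and 491.5 to 586 CPM), which did not pass. Of all 11203 genes tested, 236 (2.11%) passed, with 1.1% lower in replicate 1 and 1.01% higher. Among the 1736 genes whose reads in the 2 libraries sum to at least 200, 8.06% passed, and 17.9% had a log2 ratio at least as far from 0 as Tmsb10. Marcksl1 had the next lowest p, with a ratio of -0.18 (-0.28 to -0.07, adjusted p = 0.0559 by Fisher's exact test), which missed the threshold of 0.05. Gap43 and Marcks had the highest ratios, at 0.26 (0.08 to 0.44) and 0.23 (0.05 to 0.40), with adjusted p of 0.136 and 0.237 by Fisher's exact test.

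The ratios of the other genes were -0.31 for Stmn4, -0.27 for Stmn1, -0.23 for Tmsb4x, -0.10 for Basp1, -0.05 for Stmn3 and 0.14 for Stmn2, none past Fisher's exact test (lowest adjusted p 0.444). The median ratio of the 10 genes was -0.14, with 3 above 0 and 7 below, beside 0.01 for all tested genes. These values are relative to all mouse reads. Scaled to ERCC spike-in reads, the median of all tested genes moved up by 0.28, Tmsb10 stood at -0.06 (adjusted p = 0.705 by Fisher's exact test) and Stmn2, Gap43 and Marcks passed at 0.42, 0.54 and 0.51. In this scaling 8.64% of all tested genes passed. This scale moves every gene by the same factor. With TMM scaling, Marcksl1 passed Fisher's exact test, with an adjusted p of 0.0399, beside 2.16% of all tested genes called. In tissue samples, fewer cells of a type and less RNA per cell cannot be told apart.

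**Figure D3:**
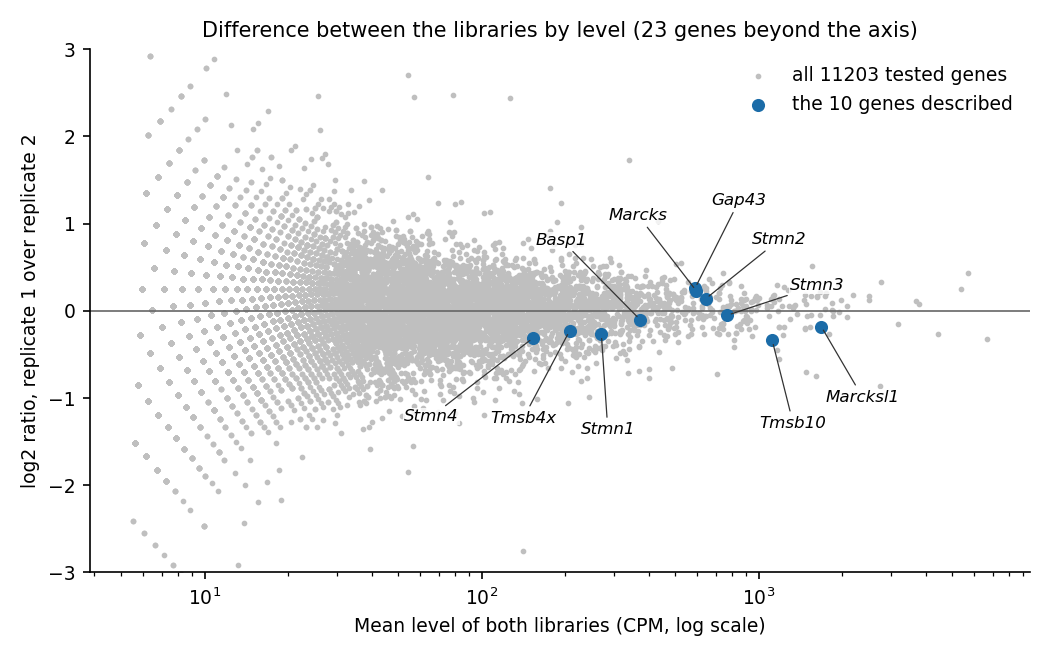
Log2 ratio of replicate 1 over replicate 2 (vertical axis) against the mean level of both libraries in CPM (horizontal axis, log scale) for all 11203 tested genes in grey and the 10 genes in blue, with 23 genes beyond the axis. The 10 genes lie between -0.34 for Tmsb10 and 0.26 for Gap43.

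**Figure D4:**
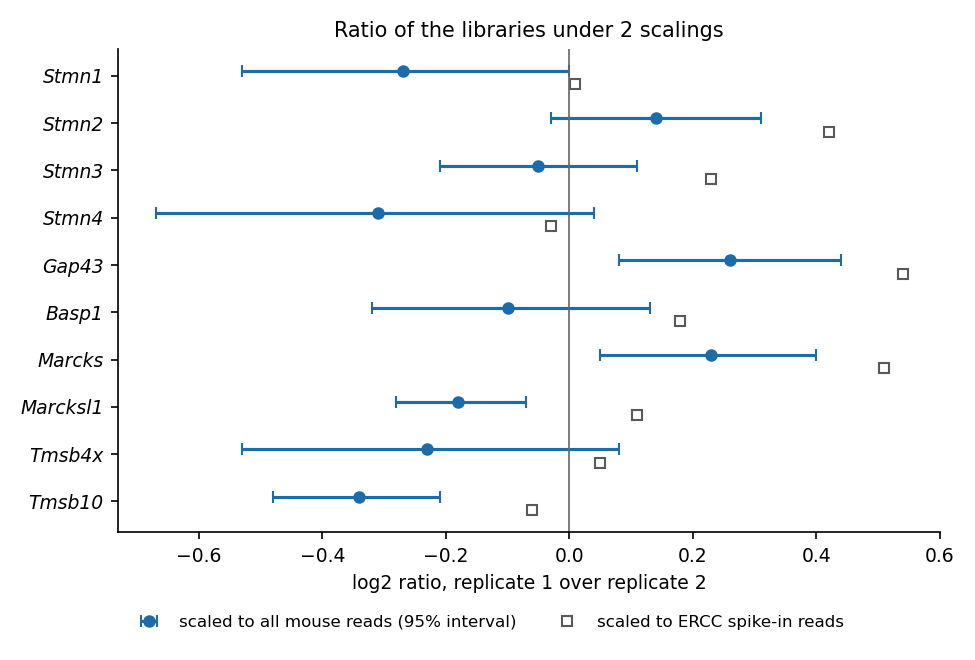
Log2 ratio of replicate 1 over replicate 2 of each gene (horizontal axis), scaled to all mouse reads with 95% intervals of the counts (filled points) and scaled to ERCC spike-in reads (open squares). Tmsb10 lies at -0.34 in the first scaling and at -0.06 in the second, and the open squares of Stmn2, Gap43 and Marcks lie at 0.42, 0.54 and 0.51.

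No gene of the 10 passed the chi-square test of its exon chains (lowest adjusted p 0.352), beside 25 of 3141 genes (0.796%). Of the 10, 2 had an unadjusted p under 0.05 by that test. The share of the 3141 genes under this unadjusted cut was not counted, so no excess can be read from it. The structure of the reads was described over both libraries. The leading annotated chain held a median of 87.7% of the reads of the 10 genes. Beside it, the most-read spliced chain of the 3144 genes, annotated or not, held a median of 72.3%. Chains with unannotated splice sites or combinations held a median of 0.53%, beside 6.27%, and spliced fragments 0.952%, beside 4.36%. The 3144 genes were not matched to the 10 on exon number or length, on which these shares can depend. The leading chains of Basp1, Marcks and Marcksl1 have only 2 exons, so a spliced fragment of them cannot arise, and their share was 0. The share of Tmsb10 was 0 too, and each intron of its leading chain is by itself that of an annotated chain (Tmsb10-202 or Tmsb10-204). These shares of 0 are part of the median of 0.952%. Single-exon models held 4.53%, beside 2.56%, with a range of 0.152% in Tmsb10 to 49.9% in Stmn4. In all, 52 unannotated spliced chains of the 10 genes had 47 reads in replicate 1 and 58 in replicate 2, and 11 of them were seen in both.

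**Figure D5:**
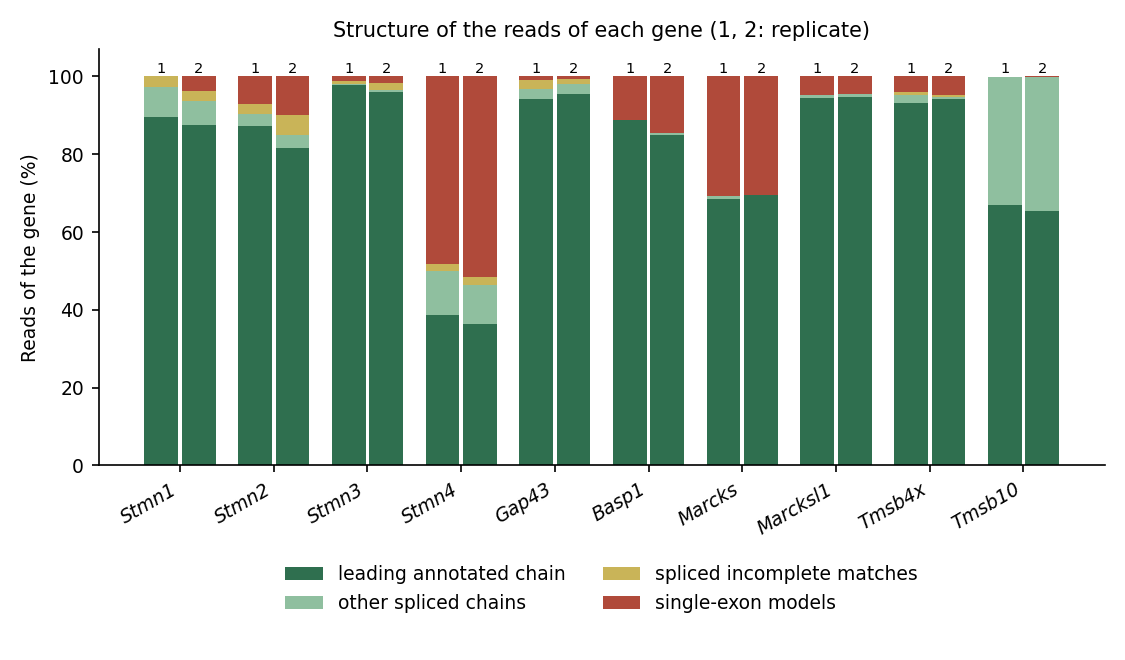
Share of the reads of each gene (percent, vertical axis) on its leading annotated chain, other spliced chains, spliced incomplete matches and single-exon models, with replicate 1 as the left bar and replicate 2 as the right bar. Single-exon models reach 48.1% and 51.6% in Stmn4 and 30.8% and 30.4% in Marcks, and other spliced chains 33.0% and 34.3% in Tmsb10.

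Other genes of the same processes were read from lists. Of 30 growth cone and neurite growth genes, 26 were tested, 2 were higher in replicate 1 and none lower, with a median ratio of 0.04, beside 2.11% of all genes called and 8.06% of those with 200 or more reads. These were Gpm6a, a membrane glycoprotein of neurites, at 1877 CPM in replicate 1 and 1633 CPM in replicate 2 (log2 ratio 0.20, adjusted p = 0.0141 by Fisher's exact test), and the neuronal tubulin Tubb3, at 868 and 692 CPM (0.33, adjusted p = 0.00503). Gpm6b, a relative of Gpm6a, had 1753 and 1725 CPM. Of 17 actin turnover partners of the thymosins, 14 were tested and 1 was higher in replicate 1. Beside this, 1.01% of all genes were higher, and 8.06% of those with 200 or more reads were called in either direction. The gene higher in replicate 1 was the cytoplasmic actin gene Actg1 at 2142 and 1728 CPM (0.31, adjusted p = 3.27e-07 by Fisher's exact test). Actb had 915 and 880 CPM and the filament-severing Cfl1 1114 and 1258 CPM. The median ratio of that list was 0.12.

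Of 23 kinases, phosphatases and calmodulin partners of GAP-43, BASP1, MARCKS proteins and stathmins, 22 were tested and 4 were lower in replicate 1, with a median ratio of 0.12, beside 1.1% of all genes lower and 8.06% called in either direction among those with 200 or more reads. Among these were Nrgn, the calmodulin store of dendritic spines, at 1942 and 3525 CPM (-0.86), and the calmodulin genes Calm3 at 1623 and 1954 CPM (-0.27) and Calm2 at 3023 and 3343 CPM (-0.15), with adjusted p of at most 0.0184 by Fisher's exact test. Nrgn is also a marker of excitatory neurons, and no other of those 6 markers passed. Of the 6, 3 had a ratio above 0, namely Slc17a7 (0.06), Neurod6 (0.22) and Tbr1 (0.24), and 3 below, with a median of -0.26. Of 8 markers of immature neurons, 6 were tested and Tubb3 was higher in replicate 1, with a median of 0.07.

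For the remaining cell types, the medians were -0.09 for inhibitory neurons, -0.18 for astrocytes, -0.02 for oligodendrocyte precursors, -0.11 for microglia and 0.13 for endothelium, with 1 gene past Fisher's exact test, Aldoc of astrocytes, lower in replicate 1 (-0.28). The list of 6 myelin genes had a median of 0.63, with Mbp and Cnp among those higher in replicate 1, and that of 7 striatal genes a median of 2.45, with Ppp1r1b, Penk, Drd1, Drd2 and Rgs9 higher. Of the 3 choroid plexus genes, Ttr was lower in replicate 1 at 28 reads against 228, and of 5 red blood cell genes Hba-a1, Hba-a2 and Hbb-bs were lower. Whether these cell types contribute to the level of the 10 genes was not tested.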

How the data were processed

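Long-read RNA sequencing was made from 2 µg of total RNA for each of 2 libraries, with ERCC (Ambion mix 1) and Lexogen set 4 spike-ins, per the labels. The authors deposited whole-number read counts per transcript model, with no normalization, and model lengths and exon structures. Per the deposited text and models, TALON built them for each library alone on mm10 with GENCODE M21; the aligner is not given in the sources used here. Models without a read are not listed.

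Gene counts are sums over the models assigned to a gene. CPM is relative to all mouse reads. Reads called ERCC reads are those of all models not placed on a mouse chromosome. They were not selected by name, so reads of other spike-ins could be among them. Chains were matched by introns, and single-exon models were pooled. Two-sided Fisher's exact tests were run on genes that had 10 or more reads in all, and chi-square tests of chains took genes with at least 50 reads in each, merging chains under 10 reads, with Benjamini-Hochberg adjustment over all genes tested and a threshold of 0.05. These tests, rather than edgeR's quasi-likelihood test, were used because there is 1 group. Log2 ratios, replicate 1 over replicate 2, add 0.5 reads; Wilson intervals (95%) and floors of 3 counts cover counting error only. Chains were named from 5% of reads and internal exons from 2%, over at least 20 reads; rarer forms were chosen after their values were seen. Of each list, genes past the test were named, or the 3 with most reads; some genes are not reported here. Sequences are from GENCODE M21 transcripts (GRCm38). The steps were tested on simulated data. The genes and lists were chosen with earlier results of these data known. Tools were Python 3.11.15, pandas 2.3.3, scipy 1.17.1, Biopython 1.88 and edgeR 4.0.16 (TMM only).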

Additional observations from a re-analysis of the deposited data

Results flagged for a closer look

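Summed per gene, reads on the strand opposite the described genes stood above the limit that a count of 0 allows (3 counts) for 3 genes in both libraries. They lay in single-exon models that no comparison above uses. Opposite Stmn3 there were 33 reads in replicate 1 and 48 in replicate 2, or 5.63 and 6.63 for each 100 sense reads, on models that reach over the first intron of Stmn3. Opposite Basp1 there were 5 and 5 reads, and opposite Marcks 6 and 9 reads, each summed over models at separate places. At no single place opposite these genes were there more than 3 reads in both libraries. Gap43 had 2 and 8 such reads, Stmn2 4 and 3, Stmn4 2 and 1 and Marcksl1 1 and 0. None was seen for Stmn1, Tmsb4x or Tmsb10.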

How the results depend on the processing

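The count of genes past Fisher's exact test was 1 (Tmsb10). It stayed 1 with reads of annotated models alone, with spliced models alone, with all models over the gene's exons and with no minimum of reads. Beside this, 1.86%, 1.79%, 2.05% and 1.03% of all genes tested passed in those settings, in that order. The count for the 10 genes was 2 with TMM scaling and with a minimum of 50 reads (Marcksl1 and Tmsb10, both lower in replicate 1). It was 3 with ERCC reads as the scale (Stmn2, Gap43 and Marcks, higher in replicate 1). Of all genes tested, 2.16% passed with TMM scaling, 4.33% with a minimum of 50 reads and 8.64% with ERCC reads as the scale. In that scaling the ratio changed sign for Stmn1 (0.01), Stmn3 (0.23), Basp1 (0.18), Marcksl1 (0.11) and Tmsb4x (0.05). The count past the chi-square test of chains was 0 under its 3 alternatives. Counting annotated models alone moved the mean level of 5 genes by more than 1 SD, to 70.9 CPM for Stmn4, 323 for Basp1, 410.4 for Marcks, 544 for Stmn2 and 746 for Stmn3. With 2 libraries, leaving 1 out gives back the value of the other, so no stability can be read from it. Dividing by length changed the place of 9 of the 10 genes. No paired analysis was possible because the labels give 1 group. With 2 libraries the SD is itself uncertain, and for Stmn4 the depth limits shares most.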
